A study of Caenorhabditis elegans with 36 samples.

Results

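Whole-worm RNA of Caenorhabditis elegans labelled as strain BY273 and fed krill oil was compared between adult day 6 and adult day 3, with 3 libraries at each age. These 6 libraries were chosen by their strain, treatment and age labels, out of 36 libraries that cover 2 strains, 2 diets and 3 ages. BY273 carries an integrated array in which the dat-1 promoter drives GFP and human alpha-synuclein (Is[pdat-1GFP; pdat-1 a-syn]), so the transgene is active in dopaminergic neurons, a few cells of the animal, although the genotype label of these libraries reads wild type. Worms of all groups grew at 20 °C on Escherichia coli OP50, and adults were moved from their progeny by daily washing and filtering through a nylon net, without FUdR, the drug often used to block progeny. The day 6 and day 3 krill oil groups received 0.5 µl/ml of krill oil in the medium. The same ages of BY273 without krill oil and of the wild type strain N2 on krill oil, 3 libraries each, were used to show where the change differed. The sources used here do not give the number of worms in a library, and while the study calls its replicates biological, the labels do not say whether they came from separate cultures, so p-values measure the spread between these libraries.

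The adult hermaphrodite of C. elegans makes its sperm before its oocytes and then lays eggs until its sperm are used, and its intestine makes vitellogenins, the yolk proteins that feed the oocytes. Its body is covered by a cuticle of collagens and cuticlins, secreted by the epidermis in waves that accompany each larval molt and, for a set of collagens, in the adult. Sensory neurons end in cilia that intraflagellar transport builds and maintains, and the epidermis and intestine secrete antimicrobial peptides, lysozymes and C-type lectins that take part in defence.

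Before any result, the strain labels were compared with the counts, since a label can be wrong. In the labels' own terms, 8 genes separated the 12 BY273 libraries of days 1 and 3 from the 12 N2 libraries of those days by at least 2-fold, with 7 of them (B0511.11, C27D8.2, C27D8.3, F13H8.8, T23F6.3, T23G5.11 and ZK899.6) higher in BY273 and hmg-20, which encodes a high mobility group protein, higher in N2. In all 12 libraries of day 6, all 8 genes lay on the side of the other label. C27D8.2, C27D8.3 and T23F6.3 lie near each other on chromosome IV, between 12706700 and 12724760. C27D8.2 and C27D8.3 overlap on opposite strands and may share reads, so these neighbours may not be separate evidence. C27D8.3 (WBcel235 chromosome IV, 12706700 to 12711744) had 12.5 to 13.8 CPM (read counts scaled to library size) in libraries labelled BY273 krill oil day 6, against 131 to 139 CPM in those labelled BY273 krill oil day 3, while libraries labelled N2 krill oil had 128 to 135 CPM at day 6 and 13.3 to 15.96 CPM at day 3. hmg-20 was at 34.1 to 40.4 CPM at day 6 and 6.77 to 6.99 CPM at day 3 in libraries labelled BY273 krill oil, and at 7.13 to 8.59 CPM and 30.6 to 37.5 CPM in those labelled N2 krill oil.

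The most direct of these genes was T23G5.11, a non-coding RNA gene at III, 9242530 to 9242726, on the minus strand beside the dopamine transporter gene dat-1 (III, 9242975 to 9246802, plus strand), whose promoter is part of the transgene. T23G5.11 had 0, 0 and 0 counts in the libraries labelled BY273 krill oil day 6, against 223, 158 and 307 counts in those labelled BY273 krill oil day 3. In libraries labelled N2 krill oil it had 110, 127 and 140 counts at day 6, against 0, 0 and 0 counts at day 3. The labels are used as given throughout and no library was moved to another group. In the comparison of day 6 with day 3, age and the strain that these genes mark therefore cannot be told apart, and this holds for every direction given here.

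**Figure D1:**
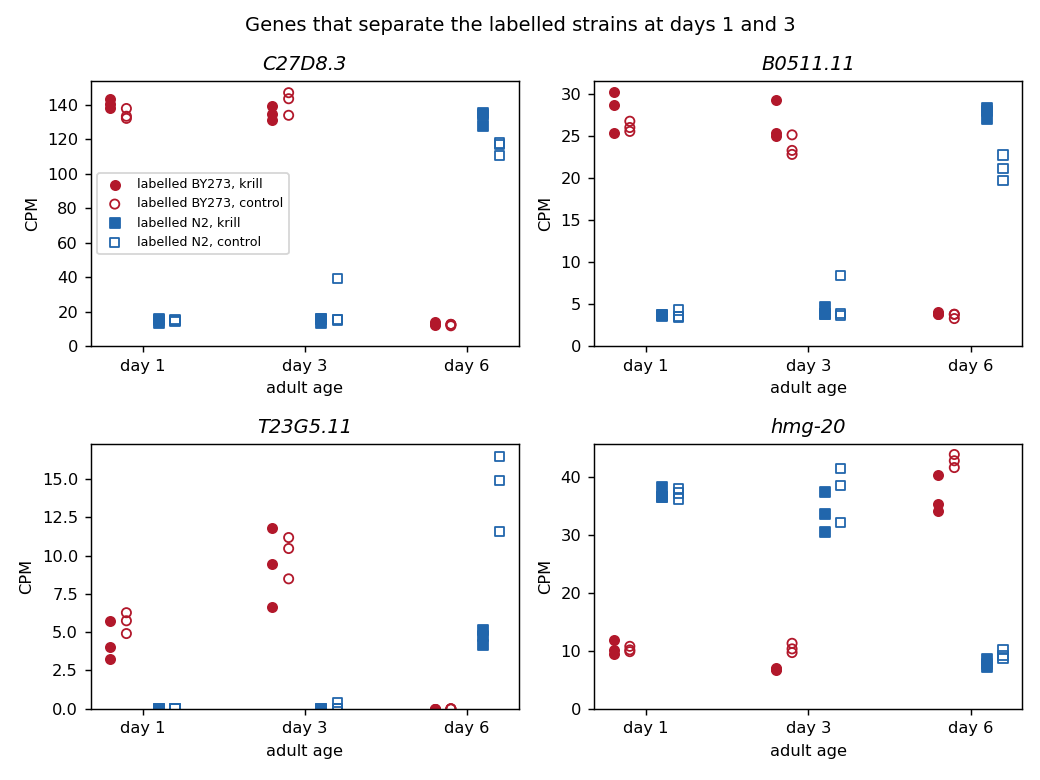
CPM (vertical axis, linear) of 4 of the 8 genes that separate the labelled strains at days 1 and 3, by adult day on the horizontal axis, with 1 point per library and with strain label and diet shown by colour and symbol. At day 6 each gene has the level of the other label, as for C27D8.3 with 12.5 to 13.8 CPM in libraries labelled BY273 krill oil, and 1 library labelled N2 control day 3, which enters no comparison here, lies between the levels at 39.4 CPM.

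The 6 libraries held 23008956 to 28569727 counts, with 6.54% to 12.9% of them on ribosomal RNA genes, and each had counts for 21857 to 22627 genes. Replicates of 1 age correlated at 0.989 or above over log2 CPM. In the day 6 group, replicate 1 had the highest summed levels of collagens and sperm genes. Among markers of tissues and stages, the 6 germline markers had a median log2 fold change of 0.03, 1 of 6 intestinal and 2 of 4 body wall muscle markers were lower at day 6, 4 of 4 pharyngeal markers were lower at day 6, and 3 of 10 markers of larvae and molting (sqt-3, noah-1 and noah-2) were lower. Of 6 markers of spermatogenic cells 5 were higher and 1 was lower, and of 3 male markers tested 1 was lower. Of 5 adult cuticle markers, all of them collagen genes, 3 were higher and 0 lower, and they summed to 498, 334 and 259 CPM at day 6, against 189, 201 and 199 CPM at day 3. Of 6 hypodermis markers 1 was higher (col-19, also an adult cuticle marker) and 1 lower (elt-1), and they summed to 513, 373 and 315 CPM at day 6, against 267, 265 and 275 CPM at day 3. The 10 larval and molting markers summed to 584, 375 and 298 CPM at day 6, against 642, 709.8 and 707 CPM at day 3. The 6 early embryo markers that could be tested summed to 10.7, 11.1 and 12.05 CPM at day 6, against 14.2, 14.5 and 16.04 CPM at day 3, and 2 of them were lower at day 6. The part that carried-over larvae, embryos in the mothers or a changed mix of tissues have in the results was not tested, and in whole-worm RNA fewer cells of a type and less RNA per cell cannot be told apart.

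Between day 6 and day 3, 554 of 14850 genes tested (3.73%) were higher and 613 (4.13%) were lower at an adjusted p under 0.05 and a more than 2-fold change (edgeR quasi-likelihood test with Benjamini-Hochberg adjustment over all genes tested), 7.86% of the genes in all. At the same adjusted p and any fold change, 1292 genes (8.7%) were higher and 1940 (13.1%) were lower, which is the rule used for gene groups. Over all genes the median was -0.03 on the log2 scale. The 3 libraries of 1 age did not overlap those of the other for 6251 genes (42.1%). Of the 1167 genes past both thresholds, 305 (26.1%) were also called between the libraries labelled BY273 and those labelled N2 at day 1. That was a comparison of 12 other libraries by the same 2 thresholds, in which 136 of 14496 genes tested were higher and 456 lower in BY273. Those 305 genes are 51.5% of that list, and for 242 of them the day 6 libraries differed from the day 3 libraries in the direction in which N2 differed from BY273. Without these genes, 341 genes were higher and 521 lower.

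The gene groups examined covered 1814 of the tested genes, of which 235 were higher and 288 lower. Leaving out 1 library at day 3 reduced these counts to 143 higher and 180 lower (without replicate 1), 145 and 152 (without replicate 2) or 133 and 136 (without replicate 3), and leaving out day 6 replicate 2 left 175 lower. Without day 6 replicate 1 there were 261 higher and 409 lower, and without day 6 replicate 3 there were 348 higher and 256 lower.

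**Figure D2:**
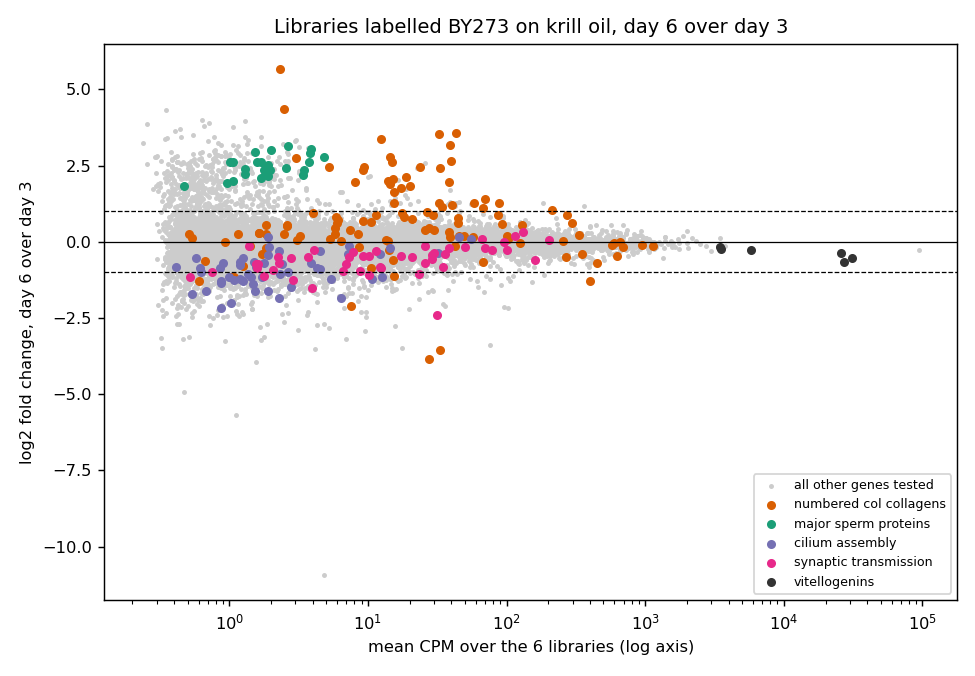
Log2 fold change of day 6 over day 3 (vertical axis) against the mean CPM over the 6 libraries (horizontal axis, log scale) for the genes tested, with members of the gene groups in colour. The 27 major sperm protein genes lie together at 1.85 to 3.14, while numbered collagens spread between -3.86 and 5.66.

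Collagens moved in both directions. Of 116 numbered collagen genes tested, 41 were higher and 12 were lower at day 6, and their median log2 fold change was 0.40, against -0.03 over all genes. Without day 6 replicate 3 there were 64 higher, without day 6 replicate 1 there were 24 lower, and without day 3 replicate 3 there were 30 higher and 7 lower. col-129, a cuticle collagen gene, had 108, 72.5 and 57.9 CPM at day 6, against 6.07, 7.10 and 6.92 CPM at day 3 (log2 fold change 3.57 ± 0.22 SE, adjusted p = 2.95e-05), and no library of 1 age reached the other. col-81 was at 82.2, 52.5 and 44.5 CPM at day 6, against 3.32, 6.19 and 5.89 CPM at day 3 (log2 fold change 3.53 ± 0.27 SE, adjusted p = 0.000128). In both genes day 6 replicate 1 was the highest library, and the lowest day 6 library was several-fold above every day 3 library. col-88 showed the same pattern with more spread, at 38.1, 15.7 and 14.3 CPM at day 6, against 2.14, 2.81 and 1.63 CPM at day 3 (log2 fold change 3.37, adjusted p = 0.000937). The log2 fold changes of other numbered collagens named by the same rule were 3.17 for col-139, 2.78 for col-120, 2.64 for col-161, 2.62 for col-60, 2.45 for col-13 and 2.44 for col-162. That rule took only genes whose ages did not overlap, here and for the largest falls below, so their separation is no added evidence. No overlap was seen in 42.1% of all genes tested. The collagens that rose most were at a lower level in libraries labelled BY273 than in those labelled N2 at day 3 on krill oil, with log2 differences of -2.33 for col-129 and -3.66 for col-88. This day 3 difference uses the same libraries labelled BY273 as the comparison of ages. At day 1 the log2 difference was 1.14 for col-129, which was called higher in BY273, and 1.12 for col-88, which was not called. Over the numbered collagens at an adjusted p under 0.05, 23 of 95 were higher and 6 lower in libraries labelled BY273 at day 1, and 7 of 120 were higher and 55 lower at day 3 on krill oil. The share over all genes at that adjusted p alone was not counted for these comparisons. With a more than 2-fold difference as well, 136 of 14496 genes were higher and 456 lower at day 1. At day 3 on krill oil 143 of 14646 were higher and 437 lower. In libraries labelled N2 on krill oil the change with age was 0.98 for col-129 (adjusted p = 0.0227) and -0.22 for col-88 (adjusted p = 0.72).

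A second set of collagens was lower at day 6. col-74 had 3.40, 3.68 and 3.54 CPM at day 6, against 45.7, 47.02 and 61.6 CPM at day 3 (log2 fold change -3.86 ± 0.14 SE, adjusted p = 1.86e-06), the largest fall among genes that averaged 5 CPM or more and did not overlap. col-165 followed with 4.90, 5.71 and 5.17 CPM at day 6, against 53.4, 54.4 and 76.6 CPM at day 3 (log2 fold change -3.54 ± 0.16 SE, adjusted p = 4.11e-06). Both genes also fell in libraries labelled N2 on krill oil, with log2 changes of -2.67 and -2.89, so the fall was seen under either label. At day 1 both were lower in libraries labelled BY273 than in those labelled N2, with log2 differences of -3.18 for col-74 and -3.31 for col-165. col-121 (-2.12) and col-95 (-1.28) were lower as well.

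Collagens with known mutant body shapes moved in both directions. dpy-17, whose product is needed for the secretion of another collagen, SQT-3, had 44.9, 30.8 and 36.5 CPM at day 6, against 147, 170.4 and 184 CPM at day 3 (log2 fold change -2.16 ± 0.13 SE, adjusted p = 2.95e-05). dpy-14, a collagen gene of the same kind, had 45.2, 30.5 and 31.9 CPM at day 6, against 139, 153 and 176 CPM at day 3 (log2 fold change -2.12). sqt-3 itself was at 122, 73.3 and 67.3 CPM at day 6, against 199.6, 218 and 229 CPM at day 3 (log2 fold change -1.302, adjusted p = 0.00207). All 3 genes separated the ages without overlap, and in libraries labelled N2 on krill oil the log2 changes were -2.59 for dpy-17, -2.53 for dpy-14 and -1.08 for sqt-3. Among 14 genes of strut and body-shape collagens, these 3 were lower and bli-6 (1.26) and dpy-13 (0.94) were higher, the call of dpy-13 being lost in 6 of 13 alternative fits. Of the 6 collagens of the annular furrows, the ring-shaped grooves of the cuticle, dpy-10 (-1.12) and dpy-2 (-1.14) were lower, and the call of dpy-2 was lost in 6 of 13 alternative fits.

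Genes of the molt and of the apical extracellular matrix were lower or did not pass the test. Of 31 such genes tested, 14 were lower and 0 were higher by edgeR at the adjusted p under 0.05, with a median log2 fold change of -0.61. At an unadjusted p under 0.05 there were 2 higher genes, DESeq2 called 0 higher, and leaving out 1 library gave 7 to 20 lower members. cut-3, a cuticlin gene, had 2.45, 2.76 and 3.58 CPM at day 6, against 29.6, 28.4 and 39.6 CPM at day 3 (log2 fold change -3.47 ± 0.18 SE, adjusted p = 9.62e-06). cht-5, which encodes a chitinase family protein, had 1.41, 1.18 and 1.59 CPM at day 6, against 13.02, 11.2 and 13.6 CPM at day 3 (log2 fold change -3.18 ± 0.16 SE, adjusted p = 7.65e-06). In both genes the highest day 6 library was far below the lowest day 3 library. The cuticlins cut-2 (-1.49) and cut-6 (-1.60), the nidogen-like matrix gene dex-1 (-0.94) and nhr-25, a nuclear receptor of epidermal development and molting (-1.02), were lower too. cut-3, cht-5 and cut-2 also fell in libraries labelled N2 on krill oil, with log2 changes of -2.81, -2.10 and -0.98.

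The hedgehog-related and patched-related genes, a large nematode family expressed mainly in epidermis and linked to the cuticle, had 22 of 63 members lower and 6 higher, with a median of -0.37. ptr-25, a patched-related gene, had 14.2, 7.75 and 8.09 CPM at day 6, against 31.98, 35.7 and 42.7 CPM at day 3 (log2 fold change -1.89 ± 0.22 SE, adjusted p = 0.000774). wrt-1, of the warthog branch, was at 9.72, 5.65 and 5.05 CPM at day 6, against 15.8, 18.3 and 16.3 CPM at day 3 (log2 fold change -1.31). The groundhog gene grd-14 went the other way, at 39.4, 31.8 and 16.02 CPM at day 6, against 7.56, 10.00 and 8.56 CPM at day 3 (log2 fold change 1.74, adjusted p = 0.00339), as did wrt-4 (0.96). None of these 4 genes had overlapping ages. Leaving out 1 library gave 8 to 31 lower members in this family.

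Sperm genes were higher at day 6 as a group. All 27 major sperm protein genes tested were higher, with log2 fold changes of 1.85 to 3.14 and a median of 2.43. The major sperm proteins form the cytoskeleton of the crawling sperm and signal to oocytes. Their summed level was 138, 82.0 and 72.8 CPM at day 6, against 14.4, 17.8 and 17.9 CPM at day 3, with replicate 1 highest at day 6 and no overlap between ages. The genes are near-identical copies whose reads the counting could split among them, so single members are uncertain. msp-31 had 10.6, 8.21 and 6.38 CPM at day 6, against 1.09, 1.299 and 1.27 CPM at day 3 (log2 fold change 2.77 ± 0.22 SE, adjusted p = 0.000136), and msp-59 had 9.34, 6.27 and 5.01 CPM at day 6, against 0.830, 0.952 and 0.716 CPM at day 3 (log2 fold change 3.04 ± 0.27 SE, adjusted p = 0.000289).

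Of 41 other sperm genes tested, 29 were higher and 2 lower, with a median of 1.85. gsp-4, a sperm-specific protein phosphatase, had 3.57, 2.66 and 2.06 CPM at day 6, against 0.350, 0.346 and 0.597 CPM at day 3 (log2 fold change 2.65 ± 0.31 SE, adjusted p = 0.000818). spe-11, whose product the sperm brings to the egg, had 4.15, 3.71 and 2.76 CPM at day 6, against 0.961, 0.779 and 0.597 CPM at day 3 (log2 fold change 2.18). nspd-1, of a sperm-enriched peptide family with several similar copies, had 8.35, 4.99 and 3.93 CPM at day 6, against 0.874, 0.606 and 0.517 CPM at day 3 (log2 fold change 3.10). These genes were low in every library, at a few CPM. They were taken by their p in these same libraries, so their lack of overlap between ages is no added evidence. The 2 lower ones, named after their values were seen, were spe-15, a myosin gene (-0.56), and spe-44, a transcription factor of the developing sperm (-0.35), whose call was lost in 6 of 13 alternative fits.

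The direction of the sperm genes cannot be told apart from the strain labels. At day 1, 28 of 28 major sperm protein genes were lower in libraries labelled BY273 than in those labelled N2, with a median log2 difference of -1.36, and at day 3 on krill oil 27 of 27 were lower, with a median of -2.54. These counts use the adjusted p alone, for which the share over all genes was not counted. With a more than 2-fold difference as well, 456 of 14496 genes were lower at day 1 and 437 of 14646 at day 3. In a scaling over all 36 libraries, the sum of the major sperm protein genes was 132, 80.6 and 70.7 CPM at day 6 in libraries labelled BY273 krill oil, against 14.1, 17.4 and 17.5 CPM at day 3. In libraries labelled N2 krill oil it was 83.6, 80.5 and 67.4 CPM at day 6, against 41.0, 139.8 and 84.3 CPM at day 3, and in those labelled BY273 control it was 12.4, 5.48 and 3.10 CPM at day 6, against 20.7, 12.8 and 4.09 CPM at day 3. The day 6 krill oil libraries of both labels overlapped in this sum, and so did both ages of the libraries labelled N2.

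**Figure D3:**
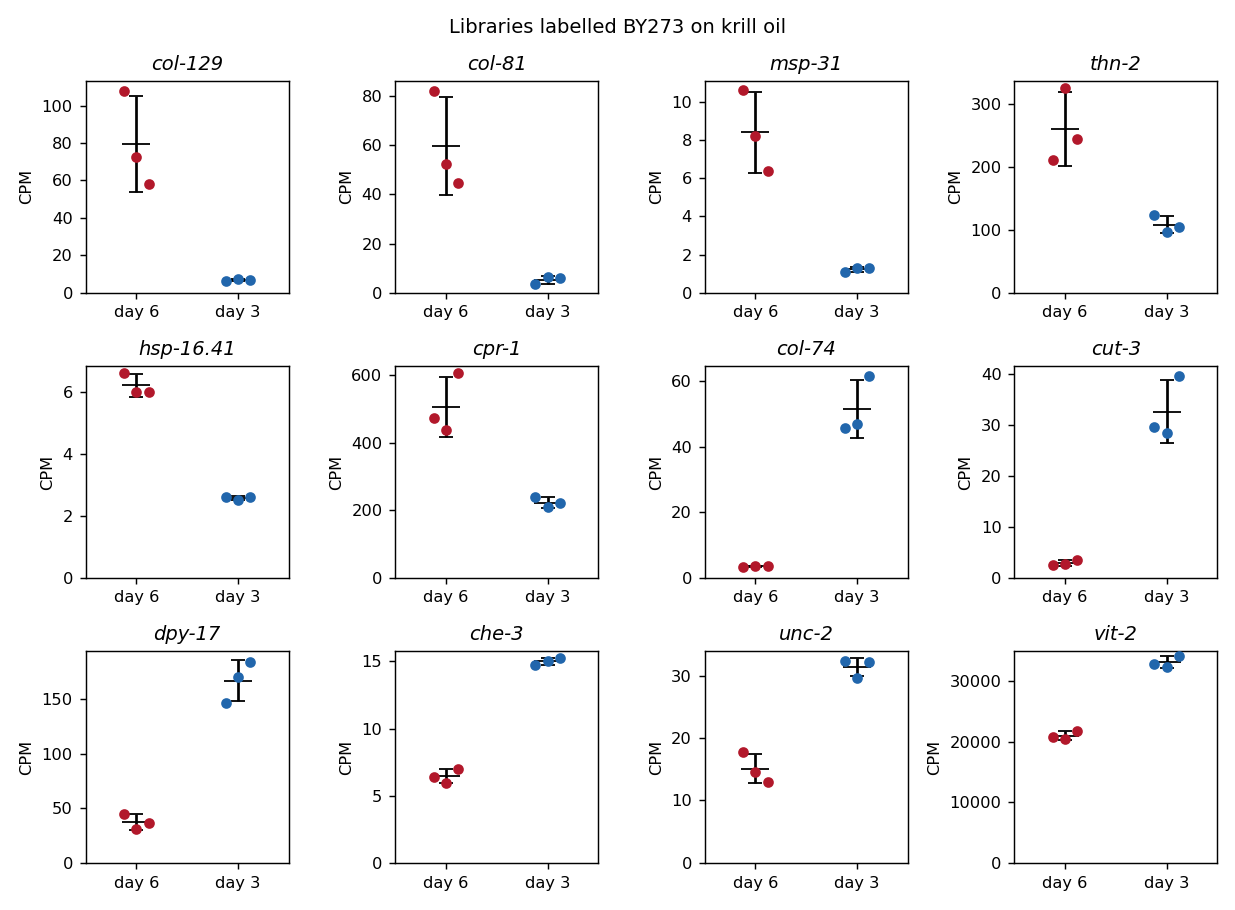
CPM (vertical axes, linear and starting at 0) of 12 genes in the 3 day 6 libraries (left in each panel) and the 3 day 3 libraries (right), with 1 point per library and the mean ± SD. col-129 is at 57.9 CPM or more at day 6 and at 7.10 CPM or less at day 3, and col-74 is at 3.68 CPM or less at day 6 and at 45.7 CPM or more at day 3.

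Yolk genes were lower at day 6 while most germline genes did not pass the test. Of the 6 vitellogenin genes, vit-2, vit-3, vit-5 and vit-6 were lower, and vit-1 (-0.18, adjusted p = 0.397) and vit-4 (-0.23, adjusted p = 0.053) did not pass. vit-2 had 20825, 20404 and 21773 CPM at day 6, against 32789, 32352 and 34188 CPM at day 3 (log2 fold change -0.66 ± 0.09 SE, adjusted p = 0.00131). vit-6, which encodes the precursor of further yolk proteins, averaged 25511 ± 1171 CPM at day 6, against 36992 ± 1197 CPM at day 3 (SD, n = 3 each, log2 fold change -0.54 ± 0.09 SE, adjusted p = 0.00365). The ages did not overlap in either gene. The calls of vit-3 (-0.25) and vit-5 (-0.35) were lost in 8 and 4 of 13 alternative fits. vit-3, vit-4 and vit-5 are close copies of each other and may share reads.

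Of 25 eggshell and oocyte genes, 0 were called in either direction by edgeR at the adjusted p and 0 by DESeq2, with 2 higher and 0 lower at an unadjusted p under 0.05. Of 27 genes of germline and meiosis, 2 were higher, both named after their values were seen: him-3 (0.26) and syp-1 (0.29), which encode parts of the chromosome axis and of the synaptonemal complex, with calls lost in 5 and 3 of 13 alternative fits. Genes first transcribed in the early embryo had 10 of 41 members lower and 1 higher, with a median of -0.28, and 3 to 9 lower when 1 library was left out. In libraries labelled N2 on krill oil the median log2 change of these embryonic genes was 0.04. Their median log2 difference between libraries labelled BY273 and those labelled N2 was -0.05 at day 1 and 0.42 at day 3 on krill oil. vet-6, a very early embryonic transcript, was at 14.2, 10.9 and 13.3 CPM at day 6, against 21.4, 21.6 and 23.4 CPM at day 3 (log2 fold change -0.79, adjusted p = 0.00211).

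Histone genes were lower at day 6 in 27 of 46 cases and higher in 2, with a median of -0.37, and in 16 to 28 cases when 1 library was left out. In libraries labelled N2 on krill oil the median log2 change of the histone genes was 0.01. The median log2 difference of libraries labelled BY273 from those labelled N2 was -0.06 at day 1 and 0.28 at day 3 on krill oil. his-24, a linker histone, had 98.3, 72.5 and 85.3 CPM at day 6, against 153, 162 and 168 CPM at day 3 (log2 fold change -0.92 ± 0.10 SE, adjusted p = 0.000634). hil-7, another linker histone gene, had 14.9, 15.7 and 9.29 CPM at day 6, against 37.8, 38.6 and 47.8 CPM at day 3 (log2 fold change -1.64 ± 0.18 SE, adjusted p = 0.000707). The ages did not overlap in either. The 2 higher ones were hil-5 (0.28) and his-74 (0.34), with calls lost in 3 and 2 of 13 alternative fits, both in fits without 1 day 3 library. Core histone genes occur in many near-identical copies and their single values are uncertain.

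Genes of cilia and of synapses were lower at day 6, while of 6 general neuron markers 2 were lower and 1 was higher. Those markers summed to 257, 289 and 229 CPM at day 6, against 245, 239 and 255 CPM at day 3, and the part that the number of neurons or their RNA has in the values below was not tested. Of 52 genes of cilium assembly tested, 33 were lower by edgeR, 22 of them by more than 2-fold, and the median was -0.87. In the other direction 0 were called by edgeR and 0 by DESeq2, and 0 were higher at an unadjusted p under 0.05. DESeq2 and the other alternative fits with all 6 libraries gave 26 to 41 lower members, and leaving out 1 library gave 20 to 35. che-3, the heavy chain of the dynein that carries cargo back along the cilium, had 6.39, 5.94 and 6.998 CPM at day 6, against 14.7, 15.02 and 15.3 CPM at day 3 (log2 fold change -1.22 ± 0.11 SE, adjusted p = 0.000269). ifta-1, of the complex used in that transport, had 3.28, 3.45 and 2.95 CPM at day 6, against 7.17, 7.75 and 7.84 CPM at day 3 (log2 fold change -1.23 ± 0.13 SE, adjusted p = 0.000552). mks-5, of the transition zone at the ciliary base, had 1.33, 0.985 and 0.661 CPM at day 6, against 3.15, 3.55 and 4.02 CPM at day 3 (log2 fold change -1.85). All 3 genes had every day 6 library below every day 3 library.

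dyf-3, a further gene of intraflagellar transport, differed between the labelled strains. In libraries labelled BY273 krill oil it had 2.78, 2.59 and 2.95 CPM at day 6, against 9.0003, 10.1 and 10.7 CPM at day 3 (log2 fold change -1.84 ± 0.13 SE, adjusted p = 7.94e-05). In those labelled N2 krill oil it had 10.2, 8.89 and 10.3 CPM at day 6, against 2.14, 1.93 and 2.69 CPM at day 3. At day 1 it was higher in libraries labelled BY273 than in those labelled N2 by 1.66 on the log2 scale. che-3 was not called at day 1 by the rule of an adjusted p under 0.05 and more than 2-fold (log2 difference 0.28), and its log2 change in libraries labelled N2 krill oil was -0.45 (adjusted p = 0.0235).

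Synaptic genes were lower in 30 of 48 cases and higher in 1, with a median of -0.51, and leaving out 1 library gave 15 to 39 lower members. unc-2, the calcium channel that triggers transmitter release, had 17.7, 14.6 and 13.02 CPM at day 6, against 32.3, 29.7 and 32.2 CPM at day 3 (log2 fold change -1.06 ± 0.12 SE, adjusted p = 0.000707). unc-36, a subunit of calcium channels, had 9.43, 8.80 and 8.44 CPM at day 6, against 15.9, 15.4 and 16.9 CPM at day 3 (log2 fold change -0.85 ± 0.10 SE, adjusted p = 0.00092). unc-10, the scaffold protein RIM of the release site, had 9.51, 8.80 and 7.97 CPM at day 6, against 16.17, 14.8 and 16.04 CPM at day 3 (log2 fold change -0.84 ± 0.11 SE, adjusted p = 0.00128). In these 3 genes the ages did not overlap, and none of them was called between the labelled strains at day 1 by the same rule. unc-2 and unc-10 also fell in libraries labelled N2 krill oil, with log2 changes of -0.72 and -0.72.

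aex-3, an exchange factor for the vesicle protein RAB-3, had the largest change in the synaptic group, at 11.4, 9.46 and 9.17 CPM at day 6, against 51.3, 52.4 and 55.3 CPM at day 3 (log2 fold change -2.41 ± 0.10 SE, adjusted p = 2.6e-06). It was at 23.4, 26.2 and 27.9 CPM at day 6, against 17.3, 16.97 and 13.3 CPM at day 3 in libraries labelled N2 krill oil, where the change was 0.70 (adjusted p = 0.000501), and at day 1 it was higher in libraries labelled BY273 than in those labelled N2 by 1.24. The 1 higher gene was snb-1, the vesicle protein synaptobrevin (0.31), whose call was lost in 5 of 13 alternative fits.

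Neuropeptide genes mostly did not pass the test, with 3 of 88 higher and 3 lower. nlp-39 was at 41.6, 82.7 and 41.8 CPM at day 6, against 22.8, 20.7 and 23.7 CPM at day 3 (log2 fold change 1.31, adjusted p = 0.00613), and nlp-25 (2.02) and nlp-51 (0.38) were the other higher ones. The lower ones were nlp-56 (-0.73), nlp-81 (-1.17) and flp-24 (-0.43). Of these, nlp-51, nlp-81 and flp-24 lost their calls in 7, 6 and 7 of 13 alternative fits.

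Among 17 genes of dopamine and other monoamines, 5 were lower, with a median of -0.32, and 0 were higher by edgeR, by DESeq2 or at an unadjusted p under 0.05. ast-1, an ETS transcription factor that specifies dopaminergic neurons, had 2.24, 1.48 and 1.71 CPM at day 6, against 3.36, 3.98 and 4.02 CPM at day 3 (log2 fold change -1.07 ± 0.19 SE, adjusted p = 0.00518). ceh-43, a homeobox gene of the same neurons, had 13.3, 13.2 and 13.7 CPM at day 6, against 20.1, 19.8 and 22.8 CPM at day 3 (log2 fold change -0.64 ± 0.10 SE, adjusted p = 0.00241). Every day 6 library was below every day 3 library for both, although ceh-43 changed by 0.56 in libraries labelled N2 krill oil. dop-5, a receptor (-0.83), trp-4, the mechanosensory channel of dopaminergic neurons (-0.70), and mod-5, the serotonin transporter (-0.86), were the other lower genes, and trp-4 and mod-5 lost their calls in 3 and 6 of 13 alternative fits. mod-5 and the transporter gene dat-1 were named after their values were seen. dat-1 was low, at 1.29, 0.821 and 0.661 CPM at day 6, against 2.14, 1.08 and 2.47 CPM at day 3, and its log2 fold change of -1.05 ± 0.35 SE did not pass (adjusted p = 0.0573), although it did in 5 of 13 alternative fits.

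Of 12 worm orthologs of genes of Parkinson's disease, lrk-1 (-0.23), the LRRK kinase gene, and catp-6 (-0.20), an ATP13A2-related transporter gene, were called lower. Both were named after their values were seen, and the calls were lost in 10 and 9 of 13 alternative fits.

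Muscle genes were lower where they passed the test, with 1 exception. Of 34 genes of the body wall sarcomere, 9 were lower and 1 was higher, and there were 18 lower without day 6 replicate 1 and 3 without day 3 replicate 3. myo-3, a myosin heavy chain of body wall muscle, had 179, 138 and 138 CPM at day 6, against 236, 246 and 263 CPM at day 3 (log2 fold change -0.71 ± 0.10 SE, adjusted p = 0.00186). deb-1, the vinculin of the attachment sites, had 69.96, 50.5 and 47.9 CPM at day 6, against 93.7, 95.7 and 101 CPM at day 3 (log2 fold change -0.79). myo-5, a myosin heavy chain gene, had 39.4, 29.6 and 25.9 CPM at day 6, against 60.03, 57.7 and 69.5 CPM at day 3 (log2 fold change -0.98), and 5 of 8 pharyngeal muscle genes were lower with a median of -0.57. pha-4, the transcription factor that specifies the pharynx, was at 12.4, 7.95 and 8.20 CPM at day 6, against 17.3, 20.1 and 21.5 CPM at day 3 (log2 fold change -1.05 ± 0.17 SE, adjusted p = 0.00354). It also fell in libraries labelled N2 krill oil (log2 change -1.34). tni-3, a troponin I, was the higher one in the sarcomere group (0.53), with its call lost in 1 of 13 alternative fits.

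Epidermal antimicrobial peptide genes were higher in 20 of 43 cases and lower in 1, with a median of 0.60. thn-2, a thaumatin family gene, had 211, 325 and 244 CPM at day 6, against 123, 95.9 and 105 CPM at day 3 (log2 fold change 1.27 ± 0.15 SE, adjusted p = 0.000869). nlp-34, of a cluster of antimicrobial peptide genes, had 24.9, 28.2 and 16.1 CPM at day 6, against 7.995, 8.57 and 8.99 CPM at day 3 (log2 fold change 1.44 ± 0.19 SE, adjusted p = 0.00138). cnc-4, a caenacin, had 20.1, 25.2 and 16.44 CPM at day 6, against 6.77, 8.87 and 8.91 CPM at day 3 (log2 fold change 1.33). In these 3 genes every day 6 library was above every day 3 library. The lower one was thn-5 (-1.25), and its call was lost in 6 of 13 alternative fits. The group summed to 643, 766 and 571 CPM at day 6, against 377, 375 and 368 CPM at day 3, and leaving out 1 library gave 10 to 25 higher members.

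Other secreted defence genes moved in both directions. Of 107 C-type lectin genes, 20 were higher and 12 lower, with a median of 0.09, and leaving out 1 library gave 12 to 25 higher and 8 to 18 lower. clec-60 had 3.99, 3.38 and 3.81 CPM at day 6, against 0.786, 1.21 and 0.756 CPM at day 3 (log2 fold change 2.02 ± 0.21 SE, adjusted p = 0.000612), whereas clec-78 had 19.1, 10.2 and 11.7 CPM at day 6, against 50.1, 55.3 and 63.4 CPM at day 3 (log2 fold change -2.05 ± 0.20 SE, adjusted p = 0.000466). The ages were apart in both. Of 11 lysozyme genes, lys-7 (0.51) and ilys-3 (1.23) were higher, and lys-2 (-0.43), lys-4 (-0.43) and lys-5 (-1.49) were lower, all named after their values were seen. The median over the lysozyme genes was -0.20, against 0.53 in libraries labelled N2 on krill oil. The call of lys-7 was lost without day 3 replicate 2, and that of lys-4 without day 3 replicate 2 and with all 36 libraries in 1 fit. Of 24 saposin-like genes, 6 were higher and 0 lower by edgeR (3 lower at an unadjusted p under 0.05, 0 by DESeq2). Their median was 0.08, against 0.56 in libraries labelled N2 on krill oil. spp-12 had 13.9, 13.96 and 21.0 CPM at day 6, against 7.86, 2.03 and 1.47 CPM at day 3 (log2 fold change 2.11 ± 0.48 SE, adjusted p = 0.0152), and its call was lost without day 3 replicate 2.

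Of 17 genes used as markers of the pathogen response, 4 were higher and 1 was lower, with a median of 0.18. dod-24 was at 38.2, 31.4 and 29.5 CPM at day 6, against 12.4, 12.598 and 14.1 CPM at day 3 (log2 fold change 1.34 ± 0.12 SE, adjusted p = 0.000247), while irg-5 was at 2.86, 2.69 and 3.11 CPM at day 6, against 6.47, 5.80 and 6.45 CPM at day 3 (log2 fold change -1.11 ± 0.13 SE, adjusted p = 0.000981). In libraries labelled N2 krill oil both changed in the opposite direction, with log2 changes of -1.103 for dod-24 and 1.03 for irg-5. Cathepsin and aspartyl protease genes had 3 higher and 6 lower members of 21. Their median was -0.15, against 0.37 in libraries labelled N2 on krill oil. cpr-1, a cathepsin B-like protease, was at 473, 438 and 606 CPM at day 6, against 239, 208.4 and 220.0 CPM at day 3 (log2 fold change 1.18 ± 0.11 SE, adjusted p = 0.000396), and cpr-5 was at 148, 105 and 106 CPM at day 6, against 303, 237 and 220.2 CPM at day 3 (log2 fold change -1.08 ± 0.15 SE, adjusted p = 0.00178).

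In the lipid gene groups examined, genes changed by less than 2-fold where they were called, with acdh-8 as the exception. fasn-1, fatty acid synthase, had 482, 339.9 and 381 CPM at day 6, against 598, 616 and 618 CPM at day 3 (log2 fold change -0.61 ± 0.11 SE, adjusted p = 0.00589). It was 1 of 6 lower genes among 23 of fatty acid synthesis, desaturation and elongation, in which elo-1, a fatty acid elongase gene (0.18), was higher and leaving out 1 library gave 1 to 6 lower genes. The lower genes included pod-2, acetyl-CoA carboxylase (-0.28), and mdt-15, a mediator subunit that controls lipid genes (-0.24), whose calls were lost in 2 and 3 of 13 alternative fits. Of 18 genes of phosphatidylcholine synthesis and the S-adenosylmethionine cycle 3 were lower, among them sams-3 (57.3, 45.4 and 52.9 CPM at day 6, against 70.7, 76.1 and 76.8 CPM at day 3, log2 fold change -0.52 ± 0.09 SE, adjusted p = 0.00417). Of 7 fatty acid and retinol binding protein genes, 3 were lower, among them far-6 (-0.46), and far-3 was higher (0.69). acdh-8, an acyl-CoA dehydrogenase gene, was higher, at 2.86, 1.84 and 1.44 CPM at day 6, against 0.262, 0.606 and 0.119 CPM at day 3 (log2 fold change 2.63). acdh-8 lies beside the sperm gene msp-142, within II, 5794495 to 5801175, in a run of 3 higher genes, and whether the counting used strand is not given in the sources used here.

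Inducible heat shock protein genes were called in 5 of 11 cases, 4 higher and 1 lower. hsp-16.41 had 6.64, 6.01 and 6.03 CPM at day 6, against 2.62, 2.51 and 2.63 CPM at day 3 (log2 fold change 1.26 ± 0.13 SE, adjusted p = 0.000552), and hsp-16.2 had 3.99, 4.80 and 4.12 CPM at day 6, against 2.45, 2.29 and 2.19 CPM at day 3 (log2 fold change 0.90 ± 0.15 SE, adjusted p = 0.00403). The ages did not overlap, and in libraries labelled N2 krill oil the log2 changes were 1.84 and 1.58. hsp-12.1 was lower, at 1.99, 1.35 and 0.894 CPM at day 6, against 3.06, 3.51 and 4.38 CPM at day 3 (log2 fold change -1.38), and hsp-17 (0.52) and hsp-12.6 (0.98) were higher, with calls lost in 1 and 5 of 13 alternative fits. In the unfolded protein responses of the endoplasmic reticulum and of mitochondria, 1 gene was higher and 1 lower in each, of 19 and 11 tested.

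Genes of mitochondria and translation mostly did not pass the test, and those that edgeR called were higher. Of 12 proteins encoded in mitochondrial DNA 4 were higher by edgeR, with a median of 0.24, among them ctc-3, a cytochrome c oxidase subunit (0.36), and nduo-1, a subunit of complex I (0.28), both losing their calls when any 1 of the day 3 libraries was left out. Of 52 nuclear-encoded genes of the respiratory chain 6 were higher, and of 76 cytosolic ribosomal proteins 4 were higher, with medians of 0.02 and 0.06. Over all genes tested 8.7% were higher, so the respiratory chain count was near that share and the ribosomal count below it. In these 3 groups 0 genes were lower by edgeR or DESeq2, with 1, 0 and 1 lower at an unadjusted p under 0.05. These counts changed when 1 library was left out. Without any 1 of the day 3 libraries there were 0 higher mitochondrially encoded genes, 0 or 1 of the respiratory chain and 0 ribosomal ones. Leaving out day 6 replicate 3 gave 9, 12 and 27 higher genes. Without day 6 replicate 1 there were 2 higher ribosomal genes, and 1, 2 and 3 genes of these groups were lower. Of 24 antioxidant genes 4 were higher, sod-2, the mitochondrial superoxide dismutase, by 0.42 with its call lost in 3 of 13 alternative fits.

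Nuclear hormone receptors had 26 of 187 genes lower and 2 higher, with a median of -0.18, and leaving out 1 library gave 7 to 37 lower members. Of 59 cytochrome P450 genes 6 were higher and 5 lower, of 61 UDP-glucuronosyltransferases 5 were higher and 7 lower, and of 37 glutathione S-transferases 1 was higher and 3 were lower. Over all genes tested 8.7% were higher and 13.1% lower. The counts of the receptors and of these enzyme families were near or below those shares. Leaving out 1 library gave 1 to 8 higher and 1 to 7 lower P450 genes, 1 to 5 and 3 to 9 UDP-glucuronosyltransferases, and 0 to 2 and 0 to 9 glutathione S-transferases, and the ends of these ranges came without 1 day 3 library or without day 6 replicate 1. Transthyretin-related genes had 9 of 48 members higher and 4 lower, and 3 higher without day 3 replicate 1 against 13 without day 6 replicate 3. ttr-14 was at 35.002, 27.2 and 21.4 CPM at day 6, against 9.39, 11.6 and 9.91 CPM at day 3 (log2 fold change 1.44 ± 0.17 SE, adjusted p = 0.000957), while ttr-6 was at 37.5, 35.4 and 39.8 CPM at day 6, against 60.1, 58.3 and 64.2 CPM at day 3 (log2 fold change -0.70 ± 0.08 SE, adjusted p = 0.000618).

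The study's text names 17 of the tested genes, several of them chosen on these libraries, so as a list they are no independent evidence of a direction. Of these, 0 were higher by edgeR (1 by DESeq2 and 1 at an unadjusted p under 0.05) and 6 were lower: unc-10, ceh-48, jnk-1, egl-8, hlh-30 and nhr-6, with unc-10 and egl-8 taken to be the genes the study calls rim-1 and pbo-2. ceh-48, a homeobox gene of neurons, had 2.28, 1.97 and 1.67 CPM at day 6, against 4.54, 5.67 and 5.89 CPM at day 3 (log2 fold change -1.44 ± 0.18 SE, adjusted p = 0.000986). jnk-1, a stress-activated kinase, had 2.699, 2.56 and 2.29 CPM at day 6, against 4.02, 4.63 and 4.74 CPM at day 3 (log2 fold change -0.83 ± 0.15 SE, adjusted p = 0.00568). Both were lower in every day 6 library than in every day 3 library, and in libraries labelled N2 krill oil the changes were -1.47 for ceh-48 and -0.68 for jnk-1. egl-8 (-0.28), hlh-30 (-0.37) and nhr-6 (-0.57) lost their calls in 4, 2 and 3 of 13 alternative fits. skn-1, a regulator of the oxidative stress response, had a log2 fold change of 0.04 (adjusted p = 0.667), and daf-16, the FOXO factor of insulin signalling, -0.07 (adjusted p = 0.386).

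**Figure D4:**
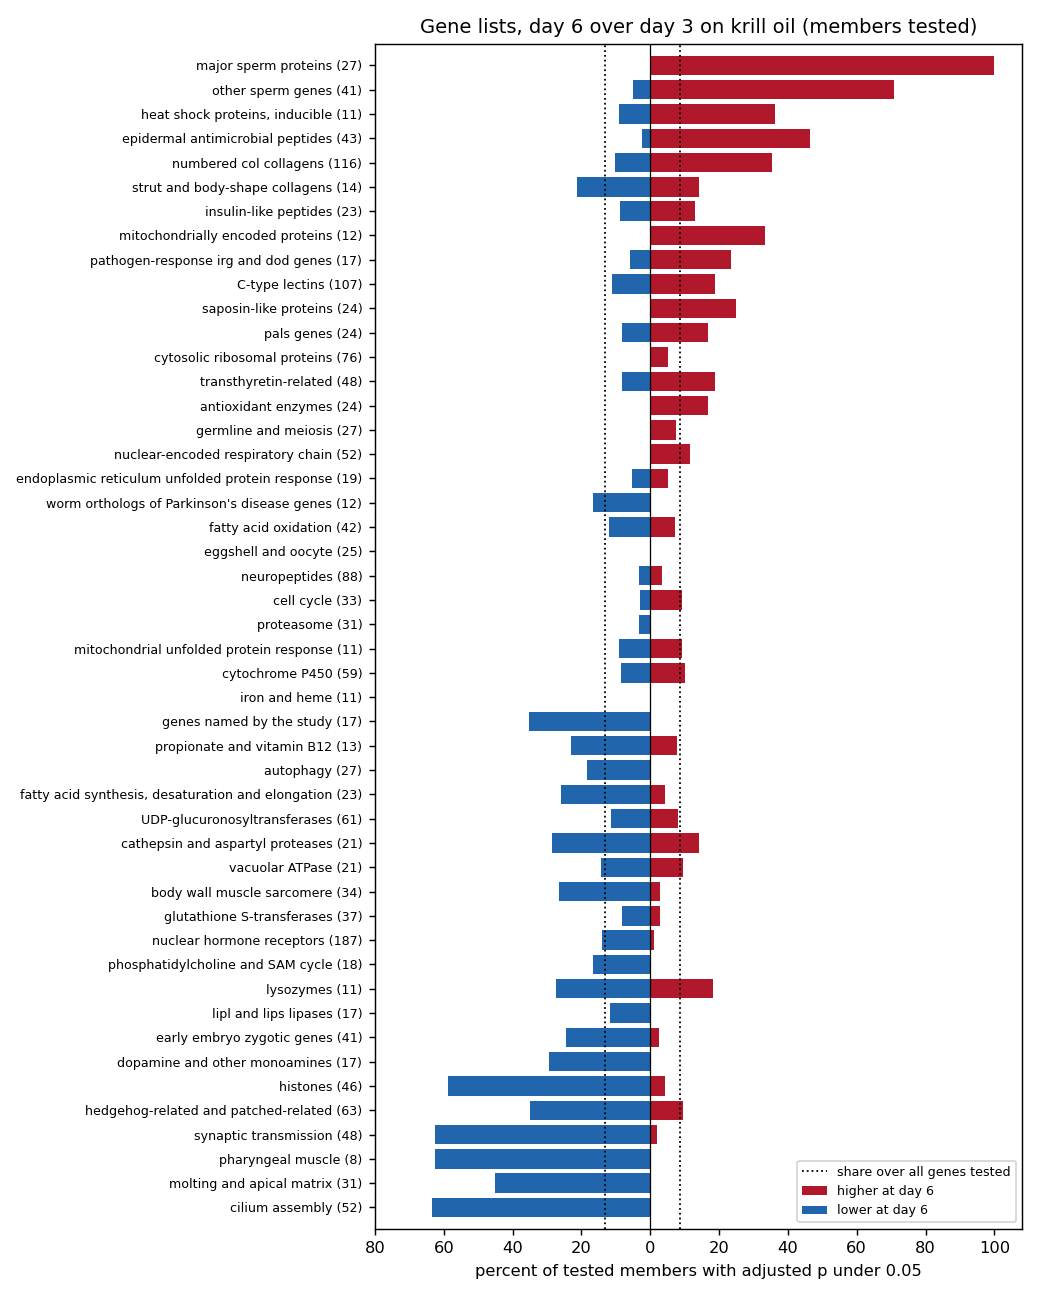
Percentage of the tested members of each gene group that were higher or lower at day 6 than at day 3 at an adjusted p under 0.05 (horizontal axis), with the number tested beside each group's name. Major sperm proteins reach 100% higher, cilium assembly has 33 of 52 lower, and the share over all genes tested is 8.7% higher and 13.1% lower.

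Of the 1167 genes past both thresholds, 948 were in none of the gene groups. Among the largest falls outside them were pqn-73, at 4.32, 2.20 and 2.45 CPM at day 6, against 14.5, 17.2 and 17.8 CPM at day 3 (log2 fold change -2.48 ± 0.22 SE, adjusted p = 0.000296), ifa-3, an intermediate filament gene, at 3.20, 1.51 and 2.72 CPM at day 6, against 9.04, 11.6 and 12.5 CPM at day 3 (log2 fold change -2.18), and R09E10.5, at 10.3, 4.86 and 6.26 CPM at day 6, against 29.7, 31.9 and 36.4 CPM at day 3 (log2 fold change -2.21). These 3 genes fell in libraries labelled N2 krill oil as well, with log2 changes of -3.04, -3.26 and -2.81. T20F5.4 (-2.29), C46A5.4 (-2.81) and Y97E10AR.1 (-2.29) were also among the largest falls. Of these 6, pqn-73, ifa-3, R09E10.5 and T20F5.4 were lower in libraries labelled BY273 than in those labelled N2 at day 1, with log2 differences of -1.34, -1.23, -1.38 and -1.23.

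Along the genome, the X chromosome had 17 higher genes (0.80% of 2124 tested) and 112 lower genes (5.27%), while chromosome IV had 159 higher genes (6.47% of 2456 tested) and 113 lower genes (4.60%). Several runs of neighbouring higher genes were sperm genes, such as msp-55, C09B9.7, msp-57 and msp-53 at IV, 5055631 to 5065061. Another run of higher genes was F14F9.3, abu-15, abu-6 and abu-7 at V, 5138219 to 5164782, with log2 fold changes of 1.02 to 3.22. A run of lower genes, idpp-7, T23F6.2 and T23F6.3 at IV, 12719964 to 12724760, includes T23F6.3, 1 of the 8 genes that separated the labelled strains.

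The change between ages was then compared with that in libraries labelled BY273 without krill oil, as the study asked how krill oil alters aging in this strain. The log2 change on krill oil was more positive than that without it for 1448 of 15386 genes tested (9.41%) and less positive for 191 (1.24%), by more than 1 on the log2 scale at an adjusted p under 0.05 (edgeR test of the difference over 12 libraries, none shared between the 4 groups). At any size of difference the shares were 18% and 13.1%. Of 118 numbered collagens 68 had a more positive change on krill oil and 6 a less positive one, and of 27 major sperm protein genes 25 had a more positive one. The median change of the collagens was -0.94 without krill oil, with 4 higher and 59 lower at day 6. Of the cilium genes 4 of 54 were more positive and 2 less positive, and their median change without krill oil was -1.08.

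On krill oil, col-135, a cuticle collagen gene, had 41.9, 31.03 and 20.4 CPM at day 6, against 7.99, 9.62 and 8.69 CPM at day 3. Without krill oil it had 6.45, 5.90 and 5.95 CPM at day 6, against 29.0, 28.8 and 27.7 CPM at day 3. The direction was opposite on the 2 diets, without overlap of the ages on either, and the difference was 4.05 ± 0.27 SE on the log2 scale (adjusted p = 4.97e-07). On krill oil, ddn-1 had 6.85, 12.5 and 8.96 CPM at day 6, against 2.16, 3.08 and 3.77 CPM at day 3, and without krill oil it had 2.69, 3.09 and 2.32 CPM at day 6, against 14.04, 14.2 and 15.2 CPM at day 3, a difference of 4.07 ± 0.30 SE (adjusted p = 1.2e-06). cyp-14A3, a cytochrome P450 gene, was at the other end. On krill oil it had 5.25, 4.74 and 6.16 CPM at day 6, against 3.32, 3.42 and 2.32 CPM at day 3, and without krill oil it had 11.2, 12.9 and 13.5 CPM at day 6, against 0.317, 0.333 and 0.187 CPM at day 3. The difference was -4.60 ± 0.29 SE (adjusted p = 3.14e-07). On krill oil, ftn-1, which encodes the iron store ferritin, had 12.3, 20.3 and 15.1 CPM at day 6, against 17.7, 18.4 and 13.8 CPM at day 3, and without krill oil it had 27.8, 32.7 and 34.1 CPM at day 6, against 2.06, 2.33 and 2.11 CPM at day 3, a difference of -3.92 ± 0.25 SE. Day 6 libraries of both diets lay on the other label's side for all 8 strain markers, and the part of this in the difference between diets was not tested. At day 6, 3 of the markers also differed by diet without overlap: hmg-20 had 35.3, 40.4 and 34.1 CPM on krill oil, against 42.8, 41.7 and 43.9 CPM without it. T23F6.3 had 0.910, 0.931 and 0.826 CPM on krill oil, against 0.331, 0.117 and 0.135 CPM without it, and C27D8.2 had 1.90, 0.931 and 0.901 CPM on krill oil, against 0.295, 0.156 and 0.180 CPM without it.

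Against libraries labelled N2 on krill oil, the change in libraries labelled BY273 was more positive for 517 of 15613 genes tested (3.31%) and less positive for 427 (2.73%), by the same rule and with no library shared between the 4 groups. At any size of difference the shares were 5.2% and 6.77%. The markers of both labels lie on the other side at day 6. With strains taken from the markers, the change with age cancels in this test. The difference is then the sum of the marked strains' differences at day 6 and at day 3. With the labels as given it is a difference in aging, and these readings cannot be told apart. Among genes that averaged 5 CPM or more and whose ages did not overlap under at least 1 of the labels, C27D8.3 was the least positive, -6.51 ± 0.10 SE, and hmg-20 the most positive, 4.53 ± 0.14 SE. Of 27 major sperm protein genes 26 had a more positive change, and of 122 numbered collagens 38 had a more positive and 7 a less positive one. In libraries labelled BY273, col-88 had 38.003, 15.7 and 14.4 CPM at day 6, against 2.15, 2.82 and 1.64 CPM at day 3, and in those labelled N2 it had 21.9, 21.3 and 27.4 CPM at day 6, against 14.1, 40.4 and 27.1 CPM at day 3, a difference of 3.58 ± 0.57 SE (adjusted p = 0.00106). Among cilium genes 1 of 55 was more positive and 9 were less positive, and among synaptic genes 3 of 50 were less positive. Histone genes had 2 of 47 more positive and 20 less positive, and early embryo genes 1 of 42 and 9. For lysozymes the counts were 0 of 11 and 8, for saposin-like genes 0 of 24 and 8, and for cathepsin and aspartyl proteases 1 of 22 and 7.

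**Figure D5:**
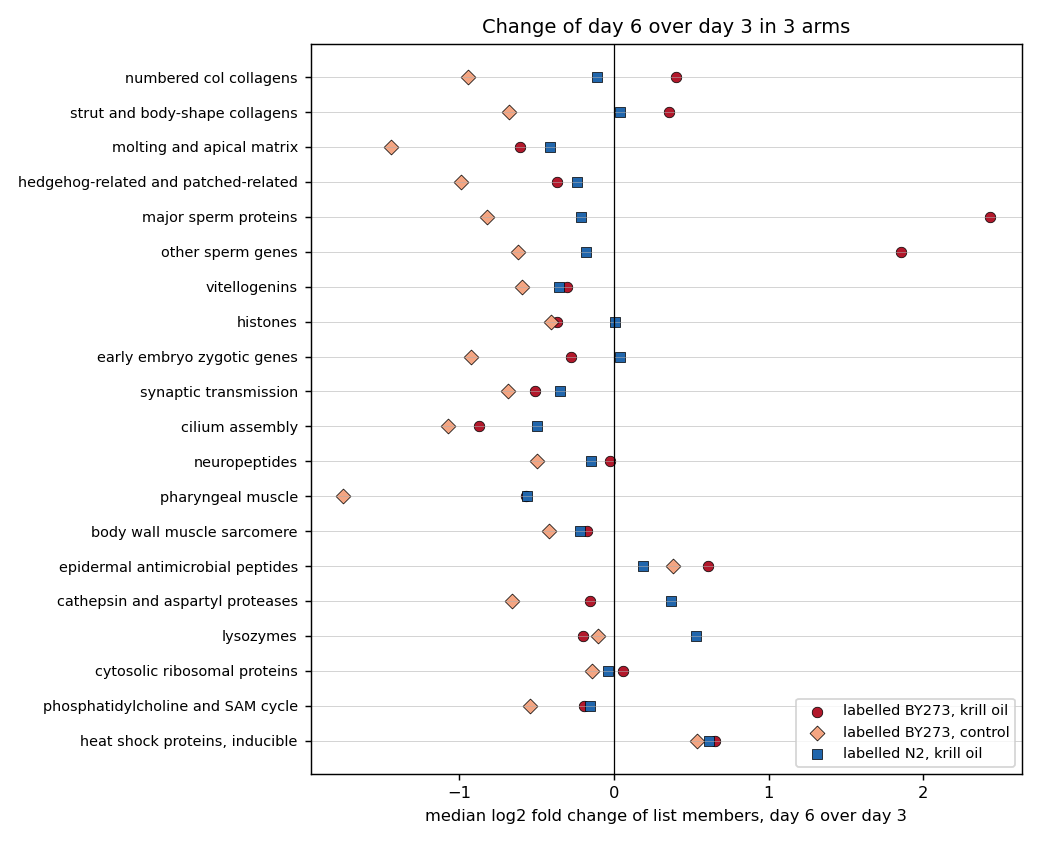
Median log2 change of day 6 over day 3 of gene groups (horizontal axis) in libraries labelled BY273 on krill oil, N2 on krill oil and BY273 without krill oil, with 1 point for each. Major sperm proteins are at 2.43, -0.21 and -0.82, and cilium assembly is below 0 in all 3, at -0.87, -0.50 and -1.08.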

How the data were processed

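RNA was rRNA-depleted and read as pairs of 71 bp. The methods name STAR 2.7.10a alignment to WBcel235 with gene annotation release 96 and removal of duplicates by unique molecular identifiers. They name fastp 0.23.2 for the study's prediction of biological age, and it is also listed in the submitters' processing notes. The authors deposited whole-number read counts per gene for each library, without normalization, and the counting program's strand setting is not given in the sources used here. Of 46778 identifiers, 43827 were given a symbol from the reference annotation. No columns of the authors' own comparisons were used.

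In edgeR 4.0.16 (R 4.3.3), genes kept by filterByExpr were given TMM factors, and the quasi-likelihood F test was run on the 6 libraries, with Benjamini-Hochberg adjustment over all genes tested. Thresholds were an adjusted p of 0.05 and an absolute log2 fold change of 1, and for gene lists the adjusted p alone. CPM are TMM-scaled, and those of the 12-library and 36-library comparisons were scaled over their own libraries. The SE was taken as the absolute log2 fold change over the square root of F. The difference between diets and between labelled strains was tested as a contrast over 12 libraries each. Genes that separate the labelled strains had at least 1 CPM and a margin of 2-fold between all libraries of each label at days 1 and 3.

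Named genes were the 14 largest rises and falls averaging 5 CPM or more without overlap, up to 4 list members per direction by p, all members of lists of up to 13, the study's genes, and the 6 largest differences per direction. For list members taken by p, a lack of overlap between ages is no added evidence. The members and the 51 lists were chosen with earlier results of these data known. Libraries held 23008956 to 28569727 counts. On simulated counts for these genes, 88% of 2-fold and 100% of 4-fold changes were recovered among 200 changed genes, with 16 of 14396 unchanged genes called. The changed genes were drawn from those averaging at least 1 CPM, so recovery for lower genes was not tested. Alternatives were DESeq2 1.42.0, RLE scaling, other filters, a replicate block, leaving out each library, and fits over 18 or 36 libraries.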

Additional observations from a re-analysis of the deposited data

Results flagged for a closer look

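In libraries labelled BY273, the change between day 6 and day 3 differed between krill oil and control for the following genes, by edgeR's test of the difference. The log2 difference, krill oil minus control, was 4.05 for col-135, 4.06 for col-60 and 4.07 for ddn-1. col-60 depended on 1 library, since its call was lost without control day 3 replicate 2, which was at 4.88 CPM against 0.595 and 0.421 CPM in the other control libraries of day 3. Changes less positive on krill oil were those of cyp-14A3 (-4.60), ftn-1 (-3.92), dct-8 (-3.81) and far-3 (-3.76), the last a fatty acid and retinol binding protein gene for which libraries on krill oil had 63.8, 64.3 and 98.3 CPM at day 6, against 59.1, 44.4 and 37.1 CPM at day 3, and libraries without it had 96.9, 109.8 and 122 CPM at day 6, against 4.40, 5.92 and 4.63 CPM at day 3.

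On krill oil, the change differed between libraries labelled BY273 and those labelled N2 (BY273 minus N2) by 4.53 for hmg-20, 3.58 for col-88, 3.56 for pgp-6 and 3.18 for col-120, and by -6.51 for C27D8.3, -5.52 for B0511.11, -4.02 for F15B9.6 and -3.97 for dyf-3. hmg-20, C27D8.3 and B0511.11 separate the labelled strains at days 1 and 3 and lie on the other label's side at day 6. For them a difference in aging and a difference between the marked strains cannot be told apart. In libraries labelled BY273, pgp-6, a P-glycoprotein transporter gene, had 21.7, 15.5 and 13.6 CPM at day 6, against 4.04, 3.65 and 3.59 CPM at day 3, and in those labelled N2 it had 5.07, 5.26 and 6.04 CPM at day 6, against 14.6, 17.5 and 10.7 CPM at day 3. In libraries labelled BY273, F15B9.6 had 7.49, 14.9 and 11.6 CPM at day 6, against 14.9, 12.2 and 12.14 CPM at day 3, and in those labelled N2 it had 18.7, 16.1 and 15.7 CPM at day 6, against 0.774, 1.71 and 0.972 CPM at day 3. The part of the strain labels in the other differences was not tested.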

How the results depend on the processing

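Against 554 higher and 613 lower genes, DESeq2 gave 584 and 459, RLE scaling 580 and 564, and leaving out 1 library 387 to 777 and 430 to 891. With only genes without any count removed, 934 genes were higher. At any fold change there were 1292 higher and 1940 lower, and in a test against a log2 fold change of 1 there were 123 and 93, which follows from the thresholds themselves. Without the genes called between the labelled strains at day 1, an alternative chosen after seeing the data, 341 were higher, and without the 8 genes that separate the labelled strains, also chosen after seeing the data, 553 and 606. Members of the gene lists numbered 235 higher and 288 lower. They were 357 higher with only genes without any count removed, 362 higher with the 18 libraries labelled BY273 in 1 fit, and 133 to 348 higher and 136 to 409 lower with 1 library left out. For these last 3 the cause was not tested, beyond the smaller number of libraries in the third. The difference between labelled strains had 517 more positive genes, 932 with only genes without any count removed, and 336 to 719 with 1 library left out.

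No pairing by replicate number was used in the main fit. The deviations of same-numbered libraries correlated at -0.056, -0.136 and -0.107. With 3 libraries at each age, these values cannot show whether the numbers mark shared cultures or runs. With the number as a replicate block, 529 genes were higher and 601 lower, 216 and 243 list members were called, and the differences had 1448 and 189 genes (diet) and 395 and 379 genes (labelled strain). Of 157 named genes called in the comparison of ages, 105 kept their call in each of 13 alternatives, and 0 reversed. For the 7 genes named in the difference between diets 6 did, and for the 8 in the difference between labelled strains 8 did. At 23008956 counts or more per library, 88% of simulated 2-fold changes were recovered in genes averaging at least 1 CPM, so changes of that size or smaller can be missed.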
